A study of Mus musculus with 3 samples.

Results

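The S100 calcium-binding genes S100a1, S100a4, S100a6, S100a8, S100a9, S100a10, S100a11, S100b and S100g were followed in single cells of the mouse epididymis, the long tube where sperm gain motility and wait for release. They are 9 of the 24335 gene rows of the deposited matrix, taken by name, and their levels were read by region and by cell type. The cells came from untreated, wild-type C57BL/6 mice aged 56 days, and the 3 groups are the caput, the corpus and the cauda, which follow each other from the testis onwards. Each region gave 1 library, and the labels do not say how many mice went into it. Nothing was therefore tested between regions: intervals are exact 95% intervals for counting error alone, and region and library cannot be told apart.

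S100 proteins are small, mostly dimeric proteins that bind calcium through a pair of EF-hand motifs and then expose a surface that grips a partner protein. S100a8 and S100a9 usually form a heterodimer (calprotectin), best known as the main cytosolic protein of neutrophils, which starves microbes of metal ions and acts as a danger signal when released. S100a10 and S100a11 pair with annexins at membranes, S100g is the small vitamin D-dependent calbindin that buffers calcium in epithelia that transport it, S100a1 acts on calcium-handling proteins in muscle, S100b is best known from glia, and S100a4 and S100a6 are found in motile and mesenchymal cells.

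The libraries held 4939 caput, 4831 corpus and 4785 cauda cells with at least 200 detected genes, with total deposited counts of 41500792, 21495211 and 18341476 unique molecular identifiers (UMIs) and medians of 5077, 2654 and 2198 UMIs per cell. Cell barcodes shared by pairs of libraries numbered from 14 to 21, and cells with over 20% mitochondrial UMIs made up 3.38%, 28.5% and 25.9%. Each cell was gated by marker genes of 16 cell types, none of them an S100 gene. Principal cells, which make up most of the epithelium and secrete into the lumen, numbered 2107 in the caput, 1813 in the corpus and 820 in the cauda, and clear cells, which acidify the lumen and express Foxi1 and proton pump subunits, 637, 424 and 126. Of 24 principal cell markers 14, 15 and 18 were at least 2-fold over the other cells of the same region. In the cauda 447 principal cells fell in cluster 23, led by Smpx and Slc7a15, and 333 in cluster 22, whose cells were shallow. In the corpus 919 fell in cluster 16 and 429 (23.7%) in cluster 18, led by haemoglobin genes, where their median was 1552 UMIs. Named as whole clusters from the same markers, cluster 18 was erythroid, at 2.16 times the threshold of that type. Cluster 22 was named macrophage at only 1.06 times the threshold, and was led by ribosomal RNA and haemoglobin genes. The levels of principal cells thus mix cells of unlike clusters. In all, 24 combinations of region and cell type held at least 50 cells. Transcripts of one cell type were seen at a lower level in the others: Gpx5, a caput principal cell gene, stood at 43827 CPM (UMIs of the gene per 1000000 UMIs of those cells) in caput principal cells, and elsewhere in the caput ranged from 3741 CPM in ciliated cells and 4315 CPM in basal cells up to 12228 CPM in erythroid cells and 13931 CPM in fibroblasts, which is 31.8% of the principal cell level. Low levels of a member outside its main cell type are to be read beside these.

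**Figure D1:**
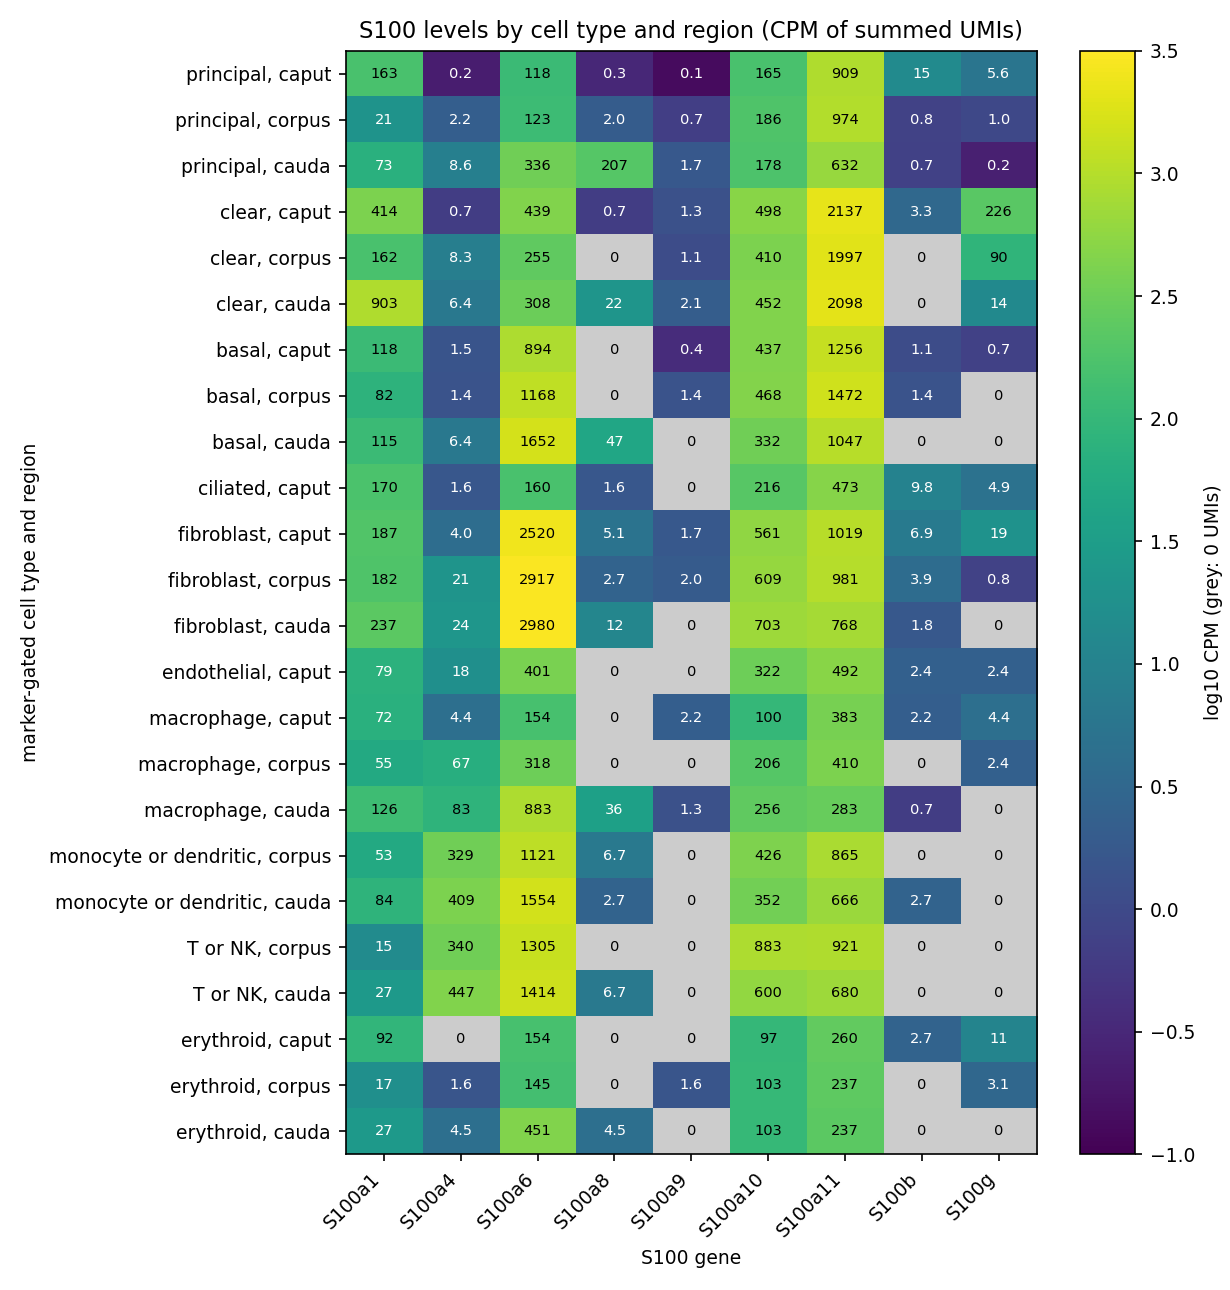
Level of each S100 gene (columns) in every combination of cell type and region with at least 50 cells (rows), as CPM of summed UMIs, printed in each cell and coloured on a log10 scale, with grey for 0 UMIs. Among these combinations S100a8 was highest in cauda principal cells (207 CPM), S100g in caput clear cells (226 CPM), S100a6 in fibroblasts and S100a11 in clear cells. Cells gated as neutrophils numbered under 50 and are not shown.

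The 9 genes lie in 4 places of the GRCm38 genome (GENCODE M21). S100a1, S100a4, S100a6, S100a8 and S100a9 lie within chr3:90511034-90695721, S100a11 and S100a10 within chr3:93520488-93564643, S100b at chr10:76253853-76261159 and S100g at chrX:162961992-162964599. S100a8 (chr3:90668978-90670035, plus strand) and S100a9 (chr3:90692632-90695721, minus strand) are neighbours, 22596 bases apart.

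S100a8 was a transcript of cauda principal cells, the only one of the 24 combinations where its level passed 50 CPM. Cells gated as neutrophils, too few to be among the 24, held it at a higher level, as given below. It stood at 0.318 CPM in caput (7 UMIs), 2.02 CPM in corpus (21 UMIs) and 207 CPM in cauda principal cells (839 UMIs; 193 to 222). Set the other way round, the level in cauda principal cells was 652 times that in caput (315 to 1627) and 102 times that in corpus principal cells (66.6 to 166). Within the cauda it stood at 232 CPM in principal cells of cluster 23 and at 86.5 CPM in those of cluster 22. S100a9, the usual partner of S100a8, stood at 0.136, 0.674 and 1.73 CPM in caput, corpus and cauda principal cells, from 3, 7 and 7 UMIs. Cauda principal cells thus held 120 S100a8 UMIs for each S100a9 UMI (57.9 to 299).

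The region around the annotated start of each gene is shown for this neighbouring pair, which differed so widely in the same cells. Each sequence is the RefSeq promoter window of 300 bases (GRCm38.p6, from 250 bases before to 50 after the annotated start), written along the gene's own strand in lower case with motif matches in capitals. S100a8 is at chr3:90668821-90669120 on the plus strand and S100a9 at chr3:90695672-90695971 on the minus strand. The annotated start is that of RefSeq. For S100a8 it lies inside the GENCODE span given above, which begins at 90668978, so part of that window before the RefSeq start is within the span.
S100a8: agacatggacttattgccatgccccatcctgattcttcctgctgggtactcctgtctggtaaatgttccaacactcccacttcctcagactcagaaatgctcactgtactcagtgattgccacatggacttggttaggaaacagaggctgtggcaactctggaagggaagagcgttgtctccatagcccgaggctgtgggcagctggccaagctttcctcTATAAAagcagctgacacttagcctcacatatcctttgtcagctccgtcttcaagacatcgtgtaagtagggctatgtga
S100a9: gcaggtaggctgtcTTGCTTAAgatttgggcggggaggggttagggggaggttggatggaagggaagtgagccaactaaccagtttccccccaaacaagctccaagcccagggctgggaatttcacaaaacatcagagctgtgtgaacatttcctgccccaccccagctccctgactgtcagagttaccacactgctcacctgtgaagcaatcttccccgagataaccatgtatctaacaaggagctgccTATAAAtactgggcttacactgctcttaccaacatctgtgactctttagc
Capitals mark the TATA box letters TATAAA, found in 13.6% of 32851 RefSeq promoter windows of the same length, and the letters TTNNGCAA bound by C/EBP factors, found in 10.8% of them, with both strands searched for each. S100a8 held TATAAA 30 bases before the annotated start. S100a9 held TATAAA beginning at the annotated start and TTNNGCAA on the opposite strand, as TTGCTTAA, 236 bases before it, with no overlap between the matches. A match is a run of letters and was not tested for binding, and the motifs were chosen with the levels of these genes known.

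Cauda principal cells with S100a8 were then set beside neutrophils. Of the 820 cells, 209 had at least 1 S100a8 UMI (25.5%; 22.5 to 28.6), against 41 of 1016 cauda fibroblasts (4.04%), which were deeper, with medians of 1655.5 UMIs per principal cell and 3960 UMIs per fibroblast. After each cell was thinned to 1000 UMIs the shares were 12.5% (9.98 to 15.3) and 0.651% (0.239 to 1.41), with 203 principal cells and 94 fibroblasts left out as shallower. The UMIs were spread unevenly, with 92 cells holding 1 UMI, 65 holding 2 to 4 and 52 holding 5 or more, and these 52 held 579 of the 839 UMIs. The highest cell held 58, and without it the level was 194 CPM. Cells with S100a8 had a median of 6490 UMIs and those without had 1287, so the cells without it were also shallower.

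Neutrophil genes were nearly absent from the same cells. Of 8 genes listed as specific to neutrophils, 4 were in the matrix (Csf3r, Cxcr2, Mmp8 and Camp), and in cauda principal cells they summed to 5 UMIs in 5 cells, with Csf3r, the receptor for the growth factor that drives neutrophil production, at 3 UMIs and Cxcr2 and Camp at 0. Leaving out these 5 cells kept 815 of 839 S100a8 UMIs (97.1%; 95.8 to 98.2) and a level of 204 CPM. The 52 cells with the most S100a8 held 1 Csf3r UMI and 5 S100a9 UMIs between them. The listed genes were not confined to neutrophils here. Macrophages held 10, 13 and 45 Csf3r UMIs in caput, corpus and cauda (21.8, 15.8 and 14.7 CPM), and corpus principal cells held 15 Mmp8 UMIs. With a wider list, which adds genes that macrophages and epithelium also express, such as Cxcl2, 592 UMIs remained (70.6%), at 242 CPM. Ltf and Lcn2, listed for neutrophil granules, stood at 603 and 175 CPM in cauda principal cells and at 0.318 and 7857 CPM in caput principal cells, and were not used as neutrophil markers for that reason.

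Cells gated as neutrophils were few and held S100a8 and S100a9 in nearer numbers. Their gate required 2 of the specific genes, Csf3r among them, so their Csf3r counts are partly set by it. S100a8 stood at 6845 CPM in the 4 cauda cells and at 2978 CPM in the 3 corpus cells, against 207 CPM in cauda principal cells. The 4 cauda cells held 35 S100a8, 21 S100a9 and 8 Csf3r UMIs, and the 3 corpus cells held 24, 25 and 7, so the S100a8 to S100a9 ratio was 1.67 (0.944 to 3.01) and 0.96 (0.525 to 1.75), against 120 in cauda principal cells. Both ratios rested on 1 cell, which held 29 of the S100a8 and 20 of the S100a9 UMIs in the cauda and 14 and 25 in the corpus, and without it the counts were 6 S100a8 to 1 S100a9 UMI in the cauda and 10 to 0 in the corpus. No caput cell passed the neutrophil gate. In the corpus, 6 cells with at least 2 S100a9 UMIs held 98 of the 109 S100a9 UMIs of the library (89.9%), 124 of its 164 S100a8 UMIs (75.6%) and 14 UMIs of specific neutrophil genes. In the cauda, 4 such cells held 29 of 45 S100a9 UMIs (64.4%) but 64 of 1310 S100a8 UMIs (4.89%). S100a9 was at or under 2.18 CPM in each of the 24 combinations and at 0 in 11 of them, which is too few UMIs to rank.

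**Figure D2:**
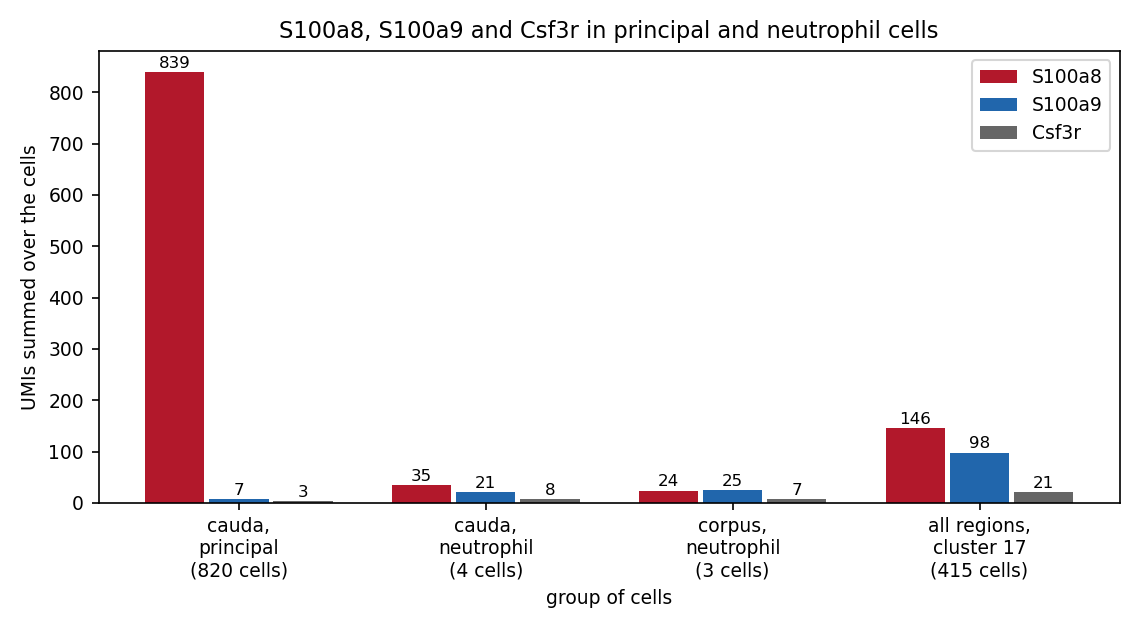
UMIs of S100a8, S100a9 and Csf3r, listed as a neutrophil gene (vertical axis, linear), summed over cauda principal cells, cauda and corpus cells gated as neutrophils, and cluster 17, which carries monocyte or dendritic markers and holds most of the S100a9. Cauda principal cells held 839, 7 and 3 UMIs, against 35, 21 and 8 in the 4 cauda and 24, 25 and 7 in the 3 corpus cells gated as neutrophils, where 1 cell of each region held most of the S100a9. The bars are sums over groups of unlike size, not levels. Csf3r is among the genes that set the neutrophil gate, and macrophages held it as well.

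Outside principal and neutrophil-gated cells, S100a8 in the cauda had 1 UMI each in monocytes or dendritic cells, erythroid cells and T or NK cells. It stood at 11.7 CPM in fibroblasts, 22.3 in clear cells, 35.9 in macrophages and 46.8 in basal cells. Cauda cells that passed no gate had 53.0 CPM, and those that passed several 62.3 CPM. In fibroblasts this was 5.64% of the principal cell level (4.22 to 7.37), beside 4.24% for the principal cell gene Crisp1 and 4.63% for Pnmt. In macrophages it was 17.4% (14.3 to 20.9) beside 9.05% for Crisp1 and 12.4% for Pnmt, and in basal cells 22.6% (14.2 to 34.2) beside 6.82% and 6.75%. Both higher values rested on 1 cell, which held 41 of 110 UMIs in macrophages and 17 of 22 in basal cells. Without that cell the level was 22.7 CPM in macrophages and 10.8 CPM in basal cells.

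**Figure D3:**
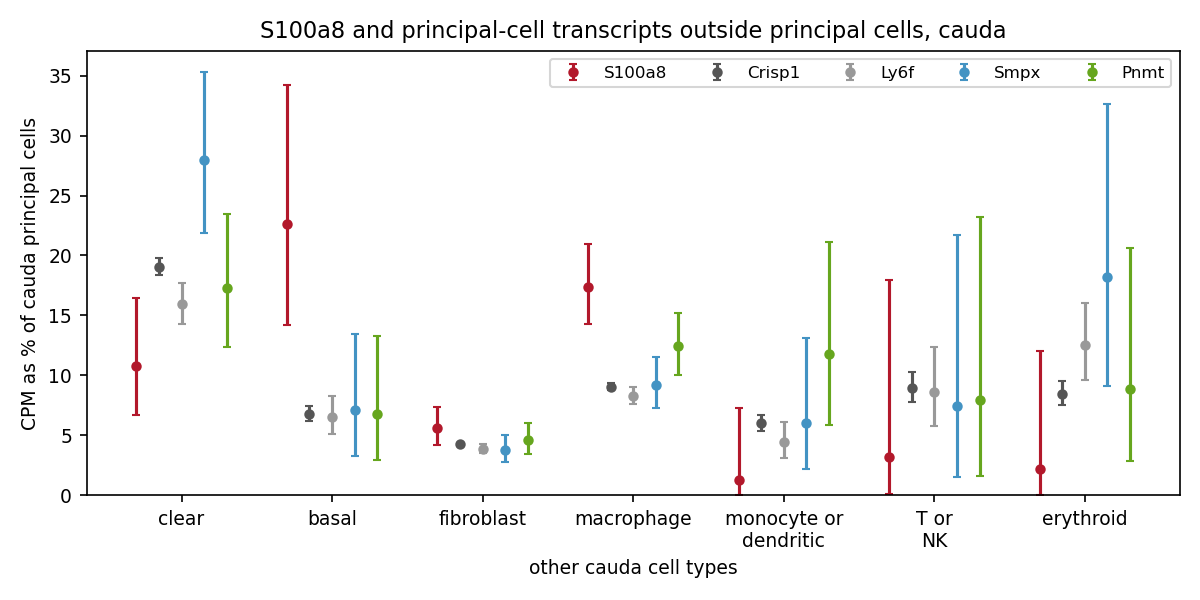
Level of S100a8 and of 4 principal cell genes (Crisp1, Ly6f, Smpx and Pnmt) in other cauda cell types, as a percentage of the CPM in cauda principal cells, with exact 95% intervals from the counts of the other cell type. S100a8 lay above the 4 genes in basal cells and macrophages (22.6% and 17.4%) and below them in clear cells (10.8%).

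The genes whose levels most resembled S100a8 over the 24 combinations were 2 transcripts known by clone names (Pearson r = 0.87 and 0.79 of log2(CPM + 1)), Smpx (0.81), the amino acid transporter gene Slc7a15 (0.75) and Kcnip3 (0.71), which encodes a calcium-binding partner of potassium channels. These are the 5 highest of 9829 genes with at least 500 UMIs. The combinations share libraries, transcripts of one cell type were also seen in others, and Smpx and Slc7a15 are markers of the principal gate. The same ranking for S100a9 (Gk5 first, r = 0.66) rests on levels near 0 and is not read.

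S100g was a transcript of clear cells, with a level that was highest in the caput and lowest in the cauda. It stood at 226 CPM in caput (685 UMIs; 209 to 243), 89.6 CPM in corpus (161 UMIs; 76.3 to 105) and 13.8 CPM in cauda clear cells (13 UMIs; 7.36 to 23.6), and the intervals do not overlap. Caput clear cells had 16.3 times the level of cauda clear cells (9.49 to 30.8), and corpus clear cells 6.48 times (3.68 to 12.4). Different clusters held most clear cells of the caput (cluster 8, 87.8%) and of the corpus and cauda (cluster 7, 92.9% and 69.0%), and 27 of the 126 cauda clear cells lay in clusters 23 and 22. In cells of cluster 8 in the caput and cluster 7 in the corpus and cauda, the levels were 256, 91.9 and 15.7 CPM, a split chosen after seeing the data. Among caput clear cells 205 of 637 had an S100g UMI (32.2%; 28.6 to 36), against 2 of 312 caput basal cells (0.641%), with medians of 3842 UMIs per clear cell and 6229.5 UMIs per basal cell. Thinned to 1000 UMIs, these shares were 14% (11.4 to 16.9) and 0.321%. In the caput, 46 clear cells held 5 or more UMIs while 432 held 0. Clear cells carried 61.3% of all caput S100g UMIs and 7.32% of the UMIs of all genes.

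**Figure D4:**
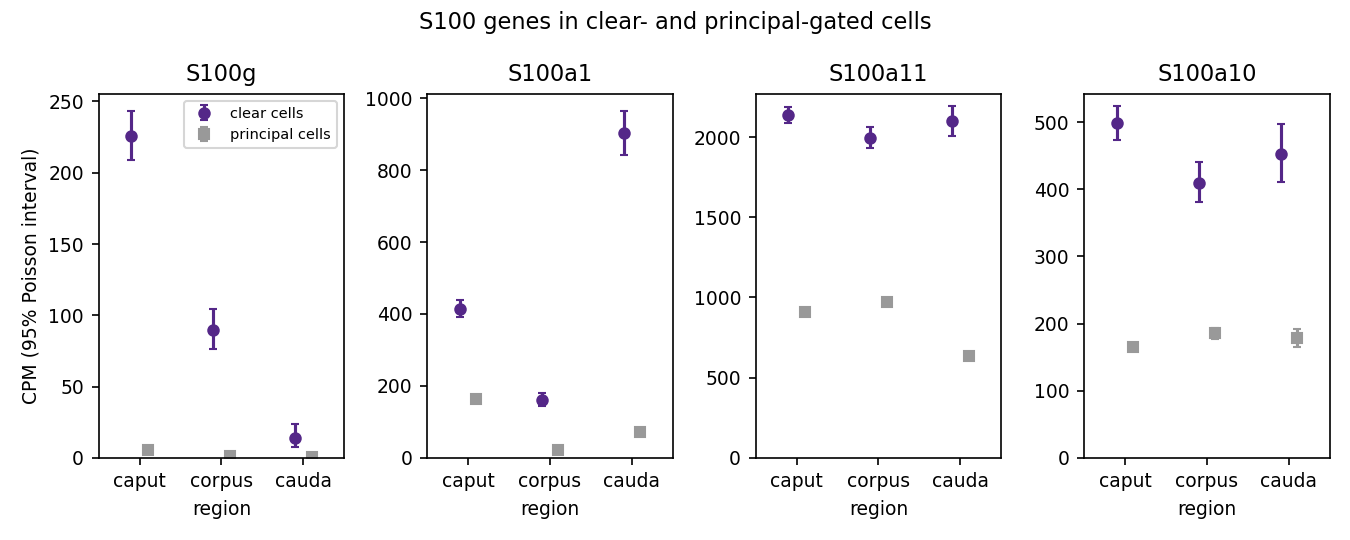
S100g, S100a1, S100a11 and S100a10 in clear cells (circles) and principal cells (squares) of each region, as CPM with exact 95% Poisson intervals on linear axes from 0. Clear cells stood above principal cells for these 4 genes in each region, S100g was highest in the caput (226 CPM) and S100a1 in the cauda (903 CPM).

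The S100g promoter window is shown because the gene followed 1 epithelial cell type along the duct (RefSeq, GRCm38.p6, chrX:162964550-162964849, minus strand, 300 bases).
S100g: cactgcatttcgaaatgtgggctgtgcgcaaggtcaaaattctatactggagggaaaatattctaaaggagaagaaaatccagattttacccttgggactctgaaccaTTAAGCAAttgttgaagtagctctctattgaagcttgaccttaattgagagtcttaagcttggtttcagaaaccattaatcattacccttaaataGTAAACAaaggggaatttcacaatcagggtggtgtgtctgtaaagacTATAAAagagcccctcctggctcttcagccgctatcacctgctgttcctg
From left to right the capitals mark TTNNGCAA, 142 bases before the annotated start, the forkhead letters GTAAACA, 47 bases before it, and TATAAA, which begins at the start. GTAAACA is the core bound by forkhead factors, the family of the clear cell marker Foxi1, and was found in 3.65% of the 32851 windows and, of the 8 S100 genes here with a window, only in that of S100g. AGAACA, a short motif bound by the androgen receptor, occurs in 18.97% of windows and was found only in that of S100a6. As for the pair above, no match was tested for binding, by Foxi1 or any other factor, and the motifs were chosen with the levels known.

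In principal cells S100g was scarce, at 5.62 CPM in caput (124 UMIs), 0.962 CPM in corpus (10 UMIs) and 0.247 CPM in cauda (1 UMI). The ratio of caput to corpus was 5.84 (3.07 to 12.5) and that of caput to cauda 22.8 (4.02 to 907). Caput principal cells with a UMI of a clear cell marker held 114 of the 124 UMIs, at 6.66 CPM (5.50 to 8.01). They were 1377 of the 2107 cells and deeper, with a median of 8934 UMIs against 5030. The 730 cells without one held S100g at 2.02 CPM (0.971 to 3.72). By cluster of caput principal cells, S100g ranged from 1.37 CPM in cluster 0 to 24.9 CPM (15.6 to 37.7) in the 54 cells of cluster 11. Caput fibroblasts had S100g at 19.4 CPM (34 UMIs, up to 9 in a cell), where the clear cell markers summed to 370 CPM, beside 5448 CPM in caput clear cells. Genes with the most similar pattern were Atp6v0d2 (r = 0.91), a proton pump subunit that is itself a marker of the clear gate, the sodium-proton exchanger gene Slc9a2 (0.90), Gng4 and Tmem213 (0.89 each) and Galnt13 (0.89). Trpv6, the epithelial calcium channel that works with vitamin D-dependent calbindins in intestine and kidney, ran along the duct in the opposite order: it stood at 3.86, 27.6 and 58.5 CPM in caput, corpus and cauda principal cells and at 1.32, 3.89 and 12.8 CPM in clear cells, from at most 12 UMIs. Vdr, the vitamin D receptor, was at or under 10.6 CPM in principal, clear and basal cells.

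Principal cells were compared between regions for all 9 genes with 1 rule of size: a ratio of at least 4 whose interval excludes 2, with at least 100 UMIs in the higher region. Of 6 S100 genes with enough UMIs, S100a1, S100b and S100g were higher in caput than in corpus, beside 7.52% of 9546 genes, and none was higher in the corpus, beside 4.67%. In caput over cauda, of 7 genes S100b and S100g were higher in the caput (all genes: 8.48% of 9386) and S100a8 was higher in the cauda (all genes: 4.07%). In corpus over cauda, of 5 genes none was higher in the corpus (all genes: 3.51% of 6945) and S100a8 was higher in the cauda (all genes: 2.25%). The median log2 ratio over the S100 genes was 1.24, 0.52 and -1.45 in these comparisons, beside 0.09, 0.19 and 0.09 over all genes with enough UMIs. Of the 5 genes behind the last median, S100a1, S100a6 and S100a8 were lower in the corpus and S100a10 and S100a11 higher. That median is the value of S100a6, which is set beside fibroblast transcripts below. The comparisons share libraries and are not independent. When principal cells with a UMI of a clear cell marker were left out, S100a1 remained the only gene past the rule in caput over corpus, and S100a8 the only one in caput over cauda. S100b then missed the minimum of 100 UMIs, with log2 ratios of 3.42 and 4.70. S100g missed it too, with 10 UMIs in the caput, and its ratios fell below 4. They were 2.83 (0.728 to 16) over the corpus and 1.38 over the cauda, where the count was 0 and was set to 3.

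**Figure D5:**
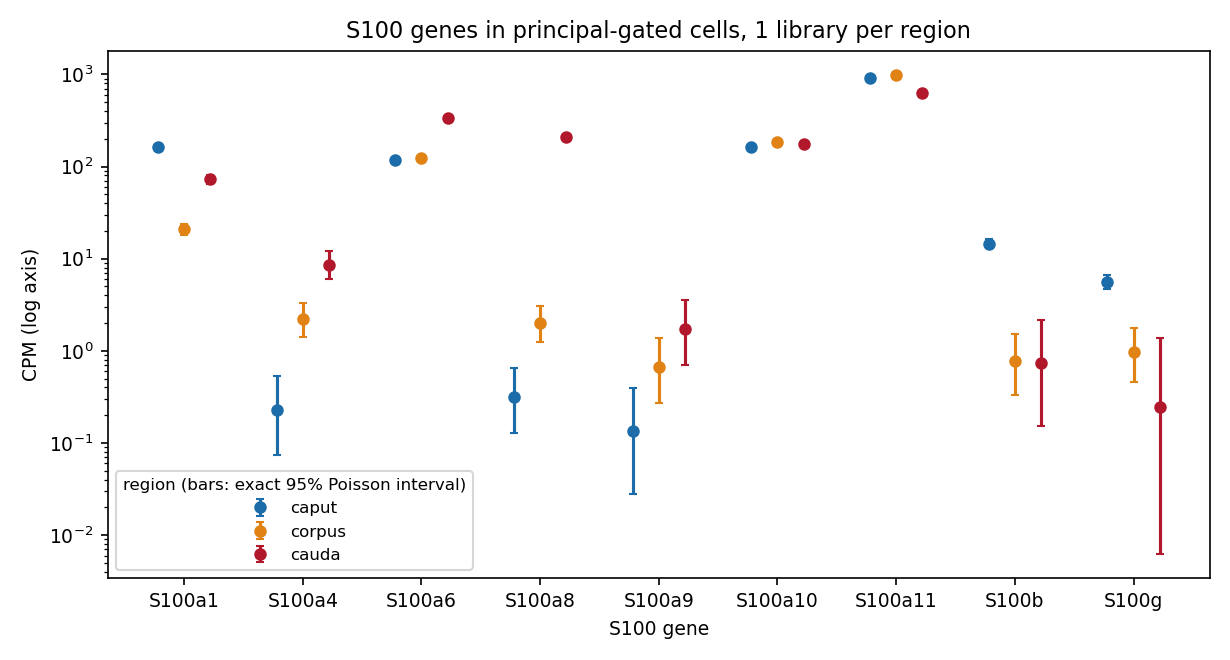
Level of the 9 S100 genes in principal cells of caput, corpus and cauda, as CPM on a log axis with exact 95% Poisson intervals. S100a8 spans 0.318 to 207 CPM and S100b and S100g are highest in the caput, while S100a10 and S100a11 lie close together in the 3 regions.

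S100b, the glial S100 gene, was found mainly in caput principal cells, at 14.5 CPM (320 UMIs; 13 to 16.2), against 0.77 CPM in corpus (8 UMIs) and 0.74 CPM in cauda principal cells (3 UMIs). The level in caput was 18.9 times that in corpus (9.45 to 44) and 19.6 times that in cauda (6.65 to 95.6). Caput principal cells held 73.1% of the caput S100b UMIs and 53.2% of the UMIs of all genes. Low counts were spread over the cells, with a UMI in 227 of 2107 caput principal cells (10.8%), at most 10 in a cell, and levels from 13.1 to 19.5 CPM in the 5 clusters that held at least 50 of them. Caput basal cells had a UMI in 0.962% of cells. After thinning, the shares were 0.907% (0.547 to 1.41) and 0.641% (0.0777 to 2.3), so at equal depth the shares could not be told apart. In CPM, caput principal cells had 12.9 times the level of caput basal cells (4.39 to 63.1) and 2.12 times that of caput fibroblasts (1.19 to 4.14). Caput ciliated cells had 9.82 CPM (6 UMIs; 3.6 to 21.4), an interval that overlaps that of principal cells, and caput cells that passed no gate had 10.8 CPM. The list of glial and nerve markers went the other way between regions, summing to 64.2 CPM in caput, 293 in corpus and 242 in cauda principal cells, and the 1353 caput principal cells without a UMI of that list held S100b at 12.6 CPM.

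S100a1, best known from muscle, was lowest in the corpus in both principal and clear cells, and differed in which end of the duct was highest. In principal cells it stood at 163 CPM in caput (157 to 168), 20.9 CPM in corpus (18.2 to 23.9) and 72.6 CPM in cauda (64.5 to 81.3), so caput had 7.79 times the corpus level (6.79 to 8.98) and 2.24 times the cauda level (1.99 to 2.53). In clear cells it stood at 414 CPM in caput (392 to 438), 162 CPM in corpus (144 to 182) and 903 CPM in cauda (843 to 966), so caput had 0.459 times the cauda level (0.42 to 0.501) and cauda had 5.58 times the corpus level (4.88 to 6.39). The corpus was lowest in both. S100a1 was not confined to these cell types: in clusters 12, 21 and 24, named fibroblast from the markers, it stood at 254, 210 and 296 CPM over all regions. In clear cells of cluster 8 in the caput and cluster 7 in the corpus and cauda, S100a1 stood at 472, 159 and 1100 CPM. The 126 cauda clear cells, 2.63% of the library, carried 23.6% of its S100a1 UMIs, and 46 of them had 5 or more. In caput principal cells without a UMI of a clear cell marker S100a1 stood at 143 CPM, in such corpus cells at 24.8 CPM and in such cauda cells at 84.8 CPM. The ratio of caput to cauda was then 1.69 (1.43 to 2.00). Within the caput it ranged from 107 to 256 CPM over the clusters of principal cells. Cauda principal cells had 61.3 CPM in cluster 23 (53.3 to 70.2) and 153 CPM in the shallow cluster 22 (117 to 197).

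S100a10 and S100a11, the annexin partners, were the most evenly expressed members. In principal cells S100a10 stood at 165, 186 and 178 CPM and S100a11 at 909, 974 and 632 CPM in caput, corpus and cauda, and the widest ratio between regions was 1.54 (1.47 to 1.61), for S100a11 in corpus over cauda. Over the 24 combinations the highest level was 2.58 times the median for S100a10 and 2.62 times for S100a11. Clear cells stood above principal cells in each region. S100a11 was at 2137 CPM in caput, 1997 in corpus and 2098 in cauda clear cells, and at 1256, 1472 and 1047 CPM in basal cells. S100a10 was at 498, 410 and 452 CPM in clear cells and highest in corpus T or NK cells, at 883 CPM (730 to 1058). Among their partners, Anxa2, which binds S100a10, stood at 391, 464 and 327 CPM in principal cells, and Anxa1, which binds S100a11, at 177, 82.4 and 155 CPM, with no ratio past the rule.

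S100a6 (calcyclin) and S100a4 were highest outside the epithelium. S100a6 was highest in fibroblasts, at 2520 CPM in caput (2446 to 2595), 2917 CPM in corpus (2851 to 2984) and 2980 CPM in cauda (2930 to 3030), so corpus and cauda overlapped. Basal cells, the stem-like cells at the base of the epithelium, had 894, 1168 and 1652 CPM, while principal cells had 118, 123 and 336 CPM. The level in cauda principal cells was 2.85 times that in caput principal cells (2.67 to 3.04) but moved with fibroblast RNA: the fibroblast list summed to 156, 414 and 5290 CPM in principal cells of the 3 regions, with none of its 7 genes at 0. Cauda principal cells of cluster 23 had S100a6 at 230 CPM, and the shallow ones of cluster 22, led by ribosomal RNA and haemoglobin genes, at 1056 CPM. Corpus principal cells had it at 92.4 CPM in cluster 16 (85.3 to 99.9) and at 284 CPM in cluster 18 (247 to 324). Principal cells without a fibroblast UMI had 108 CPM in caput and 63.5 CPM in corpus, and in the cauda only 25 such cells with 2 S100a6 UMIs were left, so the part of fibroblast RNA in the cauda level was not tested.

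S100a4 was highest in immune cells of the corpus and cauda, with 340 CPM in T or NK cells and 329 CPM in monocytes or dendritic cells of the corpus, and 447 CPM (346 to 568) and 409 CPM (346 to 480) in the same types of the cauda. The 4 values have overlapping intervals. In the caput, where those types held under 50 cells, endothelial cells were highest at 17.6 CPM (22 UMIs; 11.1 to 26.7). Macrophages had 4.35 CPM in caput (2 UMIs), 66.7 CPM in corpus and 83.3 CPM in cauda, the cauda level being 19.1 times that of the caput (5.25 to 159). Most caput macrophages were in cluster 10 (87.1%) and most cauda macrophages in cluster 25 (68.7%), and 571 of the 671 cauda macrophages held no S100a4 UMI. Without the macrophages of cluster 17, which carries monocyte or dendritic markers, the levels were 2.20 CPM in caput (1 UMI), 28.4 CPM in corpus and 42.7 CPM in cauda, again a split chosen after seeing the data. Fibroblasts, for which S100a4 has been used as a marker in other organs, had 7 UMIs in caput, and 21.1 and 23.6 CPM in corpus and cauda. In principal cells it stood at 0.227, 2.21 and 8.64 CPM, from 5, 23 and 35 UMIs. Macrophage markers stood at 50.6, 47.7 and 214 CPM in these cells, and cauda principal cells without any held S100a4 at 7.38 CPM (9 UMIs).

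In macrophages S100a6 stood at 154 CPM in caput (121 to 195), 318 CPM in corpus (281 to 359) and 883 CPM in cauda (850 to 917). The fibroblast list moved the same way in these cells, summing to 313, 820 and 19694 CPM, with 1 of its 7 genes (Dpt) at 0 in the caput and none elsewhere. Its part in the S100a6 levels was not tested.

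Of the 8 other S100 rows in the matrix, S100z was higher in caput than in cauda principal cells, at 14.7 CPM against 0 UMIs, at least 19.8-fold at a floor of 3 UMIs over the cauda cells. S100a14 was higher in the cauda, at 88.6 CPM, against 10.5 CPM in caput and 18.96 CPM in corpus. S100a13, S100a16 and S100pbp, which encodes an S100-binding protein, passed the rule in no comparison, and S100a2, S100a3 and S100a7a had at most 0.726 CPM in principal cells. Among 15 S100 partners and receptors in the matrix, 10 had enough UMIs in each comparison: Trpv6 was higher in corpus than in caput (7.16-fold, 5.61 to 9.24) and in cauda than in caput (15.2-fold, 11.8 to 19.7), and Ahnak, a large scaffold bound by S100a10, was higher in cauda than in caput (5.57-fold, 4.87 to 6.36). Of 20 other calcium-handling genes, Stim1, the calcium sensor of the endoplasmic reticulum, was higher in corpus (49.5 CPM) and cauda (54.1 CPM) than in caput principal cells (7.08 CPM), and the others passed the rule in no comparison. Ager and Tlr4, receptors for released S100a8 and S100a9, were at or under 1.97 CPM in principal cells, while Ager was at 40.4 CPM in cauda basal cells (19 UMIs) and Tlr4 was at 19.6, 14.6 and 34.6 CPM in macrophages of caput, corpus and cauda.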

How the data were processed

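Single cells were made with a Singleron GEXSCOPE kit, with red blood cells lysed, per the labels' protocols. The deposited values are raw UMI counts per gene and cell; per the submitters' processing notes the authors used STAR 2.7.3a, GRCm38.p6 and UMI-tools (version not given in the sources used here). No source says how barcodes were called cells. A minimum of 200 detected genes per cell removed 22 caput, 128 corpus and 140 cauda barcodes. No doublet caller was run.

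A cell passed a gate with at least 2 markers, at least 5 marker UMIs and a marker rate of at least 10 per 10000 UMIs, or 3 times the library's median if higher. The principal gate used 500 in caput and 200 elsewhere and the erythroid gate 1000. The neutrophil gate used at least 2 UMIs of at least 2 specific genes, at a rate of at least 0.1 per 10000 UMIs. A cell went to the gate it passed by the most if this was 2 times the next, and was otherwise mixed (732, 562 and 125 cells). Cells passing none numbered 196, 455 and 1644. Markers in the matrix numbered 135 of 143. These thresholds were set after the distributions had been seen, and within 20% of the principal threshold lay 468, 558 and 414 cells. The members and lists were chosen with earlier results of these data known.

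UMIs were summed per region and gate. Intervals are exact Poisson (levels), conditional binomial (ratios) and Clopper-Pearson (shares); a count of 0 was set to 3 in ratios. Leiden clusters (scanpy 1.11.5, igraph 0.11.9, 2000 variable genes without any S100 gene, 30 components, 15 neighbours, resolution 1) served as an alternative. The rule of size was tested on simulated counts. TMM factors came from edgeR 4.0.16. Named genes were all 9 members, genes of the listed families, and the 5 genes most like S100a8, S100a9 and S100g. Gene positions are from GENCODE M21.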

Additional observations from a re-analysis of the deposited data

Results flagged for a closer look

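S100a1 differed between caput and cauda in opposite directions in 2 cell types, and was lowest in the corpus in both. In principal cells the caput level was 2.24 times the cauda level, and in clear cells it was 0.459 times the cauda level. With principal cells holding a UMI of a clear cell marker left out, the ratio in principal cells was 1.69 (1.43 to 2.00). The difference between the cell types was not tested, since each region had 1 library. Erythroid cells differed from clear cells in the same way, with a caput level 3.43 times the cauda level, from 34 UMIs in caput and 6 UMIs in cauda, and this difference was not tested either. S100a1 in erythroid cells was 56.5% of the principal cell level in caput (39.1 to 78.9), beside 27.9% for Gpx5, and 36.9% in cauda (13.6 to 80.4), beside 8.48% for Crisp1.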

How the results depend on the processing

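No paired analysis was possible because each region had 1 library. In the count of S100 genes past the rule of size, 3 in caput over corpus became 1 with sums thinned to the smallest region and 5 with a minimum of 20 UMIs. In caput over cauda, 3 became 1 with thinned sums and 5 with a ratio of 2. In corpus over cauda, 1 became 2 with clusters in place of gates and 3 with a ratio of 2. With principal cells carrying a clear cell marker left out, a setting chosen after seeing the data, 1 gene passed in caput over corpus and 1 in caput over cauda. S100b and S100g then fell short of the minimum of UMIs. S100a8 passed in caput over cauda and in corpus over cauda under each setting tried. S100g missed the rule with stricter gates, and S100b and S100g with thinned sums. The combination with the highest level held for 5 of 9 genes with clusters and for 5 with cells over 20% mitochondrial UMIs left out, and the exceptions were among S100a4, S100a6, S100a9, S100a10 and S100a11. No cluster was named T or NK, and the 112 cells of that gate lay in clusters named fibroblast. With clusters, S100a4 and S100a10 therefore could not keep the T or NK combinations in which they were highest. The share of S100a8 UMIs kept was 100% with stricter gates and 70.6% with the wider neutrophil list. Of the other values recomputed, 352 stayed within their interval and 107 did not, and no ratio past the rule changed sign.

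Depth limits S100a9 in each cell type, S100b and S100g outside their main cell types, and principal cells of the corpus and cauda, which were shallower than those of the caput.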
